A study of Mus musculus with 6 samples.

Results

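The 9 genes described here encode the 4 pore-forming subunits of AMPA-type glutamate receptors (Gria1 to Gria4, which encode the proteins GluA1 to GluA4), 3 transmembrane AMPA receptor regulatory proteins, or TARPs (Cacng2, Cacng3 and Cacng8), and 2 cornichon proteins (Cnih2 and Cnih3). They were chosen by name: rows of the count table were taken where the mouse Ensembl gene identifier carried one of these 9 symbols in the GENCODE annotation of GRCm38. All 9 were found among 55487 genes, and all 9 passed the filter on low counts that left 16119 genes to test. RNA was measured in visual cortex of a mouse line on the B6.CBA/Tar background in which an Mmp9 untranslated region is mutated; Mmp9 encodes a secreted protease that cuts extracellular matrix at synapses. The genotypes were UTRmut/UTRmut (UTRmut, 2 mutant alleles), UTRmut/WT (het, 1 mutant allele) and WT/WT (WT, 0 mutant alleles), all at postnatal day 28. Each genotype had 2 libraries, 1 female (replicate 1) and 1 male (replicate 2), made from total RNA with a stranded kit. The labels give neither the changed bases nor which untranslated region of Mmp9 holds them, and they do not say whether a library came from 1 animal or several, so p-values reflect no more than the spread among these libraries, part of which may be technical.

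AMPA receptors carry most of the fast excitatory current in cortex. They are tetramers of GluA subunits, and the GluA2 subunit, once its RNA has been edited at the Q/R site by the deaminase ADAR2 (gene Adarb1), makes the channel nearly impermeable to calcium. TARPs and cornichons bind the pore subunits, help them leave the endoplasmic reticulum and reach synapses, and slow the closing of the channel, and the end of each TARP binds PSD-95 (gene Dlg4) in the postsynaptic density.

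The 4 pore genes and 3 TARP genes are related in sequence, which bears on whether reads can be told apart, and the stretches that define their function are shown first. The reference sequence around the codon of the Q/R site (27 bases of the sense strand, 5′ to 3′, the codon in capitals, from GENCODE transcripts on GRCm38) shows that the genome encodes glutamine in all 4 genes, with CAG in 3 of them and CAA in Gria4:
Gria1: ggggccttcatgCAGcaaggatgtgac
Gria2: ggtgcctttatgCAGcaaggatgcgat
Gria3: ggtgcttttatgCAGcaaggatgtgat
Gria4: ggtgcctttatgCAAcaaggatgtgac
The window lies in exon 11 of Gria1 (chr11:57243082-57243108, plus strand), exon 11 of Gria2 (chr3:80706899-80706925, minus strand), exon 11 of Gria3 (chrX:41610253-41610279, plus strand) and exon 12 of Gria4 (chr9:4464125-4464151, minus strand). The Gria1, Gria3 and Gria4 windows match that of Gria2 at 23, 25 and 24 of 27 bases. Edited and unedited Gria2 reads add to the same gene count, so the table holds no measure of editing.

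The last 30 coding bases of the TARP genes encode the tail that binds PSD-95, and the last 12 of them, just before the stop codon, are in capitals:
Cacng2: aacacagccaaccgccggACCACGCCCGTA
Cacng3: aatccggccaacagacgtACCACGCCTGTC
Cacng8: aacacgctcaacaggaaaACCACGCCCGTG
They lie at chr15:77995152-77995181 on the minus strand (exon 4 of Cacng2), chr7:122768814-122768843 on the plus strand (exon 4 of Cacng3) and chr7:3415573-3415602 on the plus strand (exon 6 of Cacng8). The last 12 bases of Cacng3 and Cacng8 match those of Cacng2 at 10 and 11 positions. Over whole coding sequences, pairs of pore genes were identical at 68.6% to 72.9% of aligned bases, pairs of TARP genes at 67.0% to 72.4%, and Cnih2 and Cnih3 at 77.2%. The longest stretch shared by a pair was 59 bases (Gria3 and Gria4), searched over whole annotated transcripts on both strands and so not only in coding sequence. All 50-base windows of the annotated transcripts were searched for in other genes on both strands. Of them, 5.86% for Cacng2, 1.83% for Cacng8 and at most 0.733% for any other of the 9 genes also occurred in another gene. Of the 320 such windows of Cacng2, 274 occurred in A730060N03Rik, an antisense gene that overlaps Cacng2. All 42 of Cacng8 occurred in Gm23450, and 62 of the 115 of Gria2 in Gm25749. Both are microRNA genes inside exons of the member. These matches are the member's own locus annotated as another gene.

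Total counts were 10916813 (female) and 11966579 (male) in UTRmut, 9500090 and 10598963 in het, and 10061225 and 11622460 in WT. Mmp9 itself had 8 and 16 counts in UTRmut, 9 and 9 in het, and 4 and 9 in WT, too few to check the labels. Mitochondrial ribosomal RNA took 4.95% to 8.69% of counts, with the highest share in the UTRmut male. The WT female stood apart in Arc, an activity-induced gene, which had 478 CPM (read counts scaled to library size) there and 863 to 1105 CPM in the other 5 libraries. Defining markers of cortical excitatory neurons were present in every library (7 of 7, summed to 1497 to 1781 CPM), and Slc17a7, the vesicular glutamate transporter of cortex, had 875 to 1005 CPM. Among markers of neighbouring tissue, the choroid plexus list summed to 47.2 CPM in the WT male and 2.05 to 9.49 CPM elsewhere, the hippocampal list to 66.5 to 88.3 CPM over the 6 libraries and the striatal list to 82.1 to 109 CPM. The cerebellar list summed to 87.2 to 129 CPM, of which Calb1 had 81.8 to 125.5 CPM and Cbln1 3.55 to 6.48 CPM, while Pcp2 and Gabra6 were at or near 0 in every library. Interneuron markers (7 of 7 present) summed to 731 and 702 CPM in UTRmut, 674 and 665 in het, and 609 and 679 in WT. In bulk RNA, fewer cells of a type and less RNA per cell cannot be told apart.

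Gria2 was the most abundant of the 9 genes per length of merged exon. It had 68.6 ± 2.36 CPM per kb (SD, n = 6 libraries). Gria1, whose protein commonly pairs with GluA2, followed at 57.8 ± 3.34 CPM per kb. Cnih2 had 42.7 ± 1.69 and Gria3 38.2 ± 1.08 CPM per kb. Cacng3 had 26.4 ± 1.73, Gria4 23.2 ± 0.448 and Cnih3 17.9 ± 1.66 CPM per kb. Cacng8 and Cacng2 were lowest, at 13.6 ± 1.04 and 10.8 ± 1.24 CPM per kb, and were the only neighbours in this order whose ranges over the 6 libraries overlapped. The order rests on the gene model: with counts divided by the longest coding transcript, Gria3 took 27.4% of the pore subunit sum and Gria1 23.7%, whereas per merged exon Gria1 took 30.7% and Gria3 20.4%. Gria2 led under both, at 36.5% per merged exon and 38.8% per coding transcript, and Gria4 was last at 12.4% and 10.2%.

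Of the TARP sum per merged exon length, Cacng3 took 52.1%, Cacng8 26.8% and Cacng2, which encodes stargazin, 21.2%. In counts not divided by length Cacng2 (36.0%) stood above Cacng8 (19.4%). The annotated Cacng8 model ended at 3415648, shortly past its last coding base, so reads further 3′ would not be counted to it, and the part of this in its level was not tested. Of the cornichon sum, Cnih2 took 70.5% and Cnih3 29.5%. The TARP sum per length divided by the pore subunit sum was 0.267 ± 0.0209 in UTRmut, 0.263 ± 0.0195 in het and 0.282 ± 0.0281 in WT (SD, n = 2 each). The cornichon sum over the pore sum was 0.322 ± 0.0106 in UTRmut, 0.317 ± 0.00130 in het and 0.329 ± 0.0331 in WT. Both ratios differed between genotypes by less than the SD in WT. Together the 9 genes took 0.217% ± 0.000897 of all counts in UTRmut, 0.224% ± 0.00416 in het and 0.221% ± 0.00580 in WT.

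**Figure D1:**
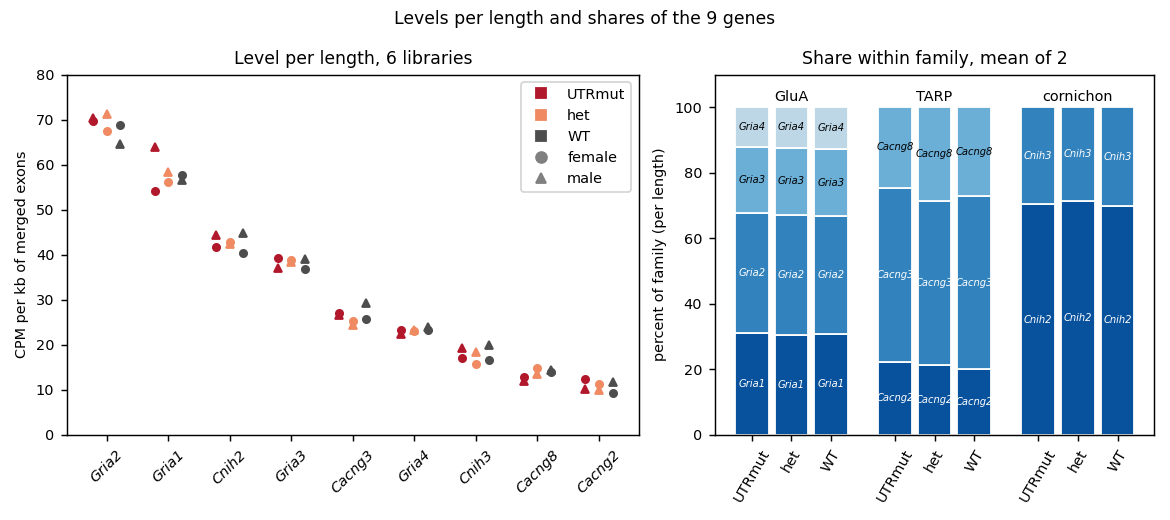
Left, level of each gene in CPM per kb of merged exons, 1 point per library (circles female, triangles male), with UTRmut, het and WT from left to right in each gene. Right, share of each gene in the summed level per length of its family, as the mean of 2 libraries per genotype. Gria2 is highest at 64.6 to 71.2 CPM per kb, only Cacng8 and Cacng2 overlap among neighbours in the order, and the Cacng8 share is 24.6% in UTRmut, 28.5% in het and 27.2% in WT.

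The levels of all 9 genes were compared between genotypes to ask whether RNA of the receptor of fast excitation differed with the Mmp9 alleles. In UTRmut against WT, 0 of the 9 passed, against 0.0062% of the 16119 genes tested (edgeR quasi-likelihood F test, Benjamini-Hochberg adjusted p under 0.05). In het against WT, 0 of 9 passed, against 0.0124% of all genes, and in UTRmut against het 0 of 9, against 0.0124%. At an unadjusted p under 0.05 the count of members was also 0 in these 3 comparisons, where 437, 382 and 452 of all genes lay under it, and DESeq2 called 0 members and 8, 3 and 7 genes in all. The 95% intervals of the members lay within -0.44 and 0.40 (log2) for UTRmut against WT, or folds of 0.736 to 1.32, and within -0.37 and 0.31 for het against WT. With 2 libraries per genotype, changes inside these intervals could not be told from none.

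Gria1 had 327 and 386 CPM in the UTRmut female and male, 339 and 352 CPM in het, and 349 and 341 CPM in WT. Its groups overlapped, with both the lowest and the highest library in UTRmut. Against WT, the log2 fold was 0.05 (SE 0.09) in UTRmut and 0.0017 (SE 0.09) in het.

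Gria2, the subunit that sets calcium permeability, had 1082 and 1093 CPM in UTRmut, 1047 and 1106 CPM in het, and 1068 and 1005 CPM in WT. Both UTRmut libraries lay above both WT libraries, by a log2 fold of 0.07 (SE 0.07, 95% interval -0.09 to 0.23), and the het libraries overlapped both other groups. The log2 difference of UTRmut minus WT was 0.02 within females and 0.12 within males. Gene counts cannot tell whether the edited share of this RNA differed.

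Gria3, an X-linked subunit gene, had 388 and 364 CPM in UTRmut, 383 and 378 CPM in het, and 363 and 384 CPM in WT. Its groups overlapped (log2 fold 0.01 for UTRmut against WT and 0.03 for het against WT, SE 0.08 each). Gria4, whose protein forms rapidly closing channels in interneurons, had 146.9 and 141.8 CPM in UTRmut, 145.9 and 147.0 CPM in het, and 147.2 and 150.5 CPM in WT. Both mutant groups lay below WT without overlap, but by log2 folds of only -0.04 (SE 0.08) in UTRmut and -0.02 (SE 0.08) in het.

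Cacng2, whose protein stargazin brings AMPA receptors to the synapse and whose loss causes seizures and ataxia in stargazer mice, had 68.7 and 55.4 CPM in UTRmut, 61.9 and 54.3 CPM in het, and 50.9 and 64.6 CPM in WT. The highest library was the UTRmut female and the lowest the WT female, so the groups overlapped. Against WT, the log2 fold was 0.10 (SE 0.14, 95% interval -0.20 to 0.40) in UTRmut and 0.01 (SE 0.14) in het. In UTRmut it was -0.06 without the WT female and 0.30 without the WT male.

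Cacng3, a TARP of cortical excitatory neurons, had 75.4 and 74.1 CPM in UTRmut, 70.3 and 67.8 CPM in het, and 71.3 and 81.5 CPM in WT. Het was lowest and overlapped neither other group (log2 fold -0.15, SE 0.10, against WT). UTRmut against het gave 0.11 (SE 0.10), and UTRmut against WT gave -0.03 (SE 0.10).

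Cacng8, which encodes the TARP best known from the hippocampus, had 30.1 and 28.2 CPM in UTRmut, 34.9 and 31.5 CPM in het, and 32.7 and 33.7 CPM in WT. Both UTRmut libraries were below all 4 others. The log2 fold was -0.19 for UTRmut against WT (SE 0.12, 95% interval -0.44 to 0.07) and -0.19 for UTRmut against het (SE 0.12), and het against WT gave -0.0017 (SE 0.12). Within each sex UTRmut minus WT was -0.12 in females and -0.25 in males. Its unadjusted p of 0.134 in UTRmut against WT ranked 1600 of 16119 genes, and the adjusted p was 0.999 (edgeR, Benjamini-Hochberg). The Cacng8 share of the TARP sum was 24.6% ± 0.147 in UTRmut, 28.5% ± 0.550 in het and 27.2% ± 1.86 in WT (SD, n = 2 each).

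Cnih2, a cornichon that slows receptor closing, had 57.0 and 60.8 CPM in UTRmut, 58.7 and 57.9 CPM in het, and 55.2 and 61.2 CPM in WT. Its groups overlapped, with log2 folds of 0.02 and 0.00 (SE 0.10 each) against WT in UTRmut and het. Cnih3, its close relative, had 46.8 and 53.3 CPM in UTRmut, 43.4 and 50.8 CPM in het, and 45.9 and 55.1 CPM in WT. In each genotype the female was the lower library, and the log2 folds against WT were -0.01 (SE 0.12) in UTRmut and -0.10 (SE 0.13) in het.

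**Figure D2:**
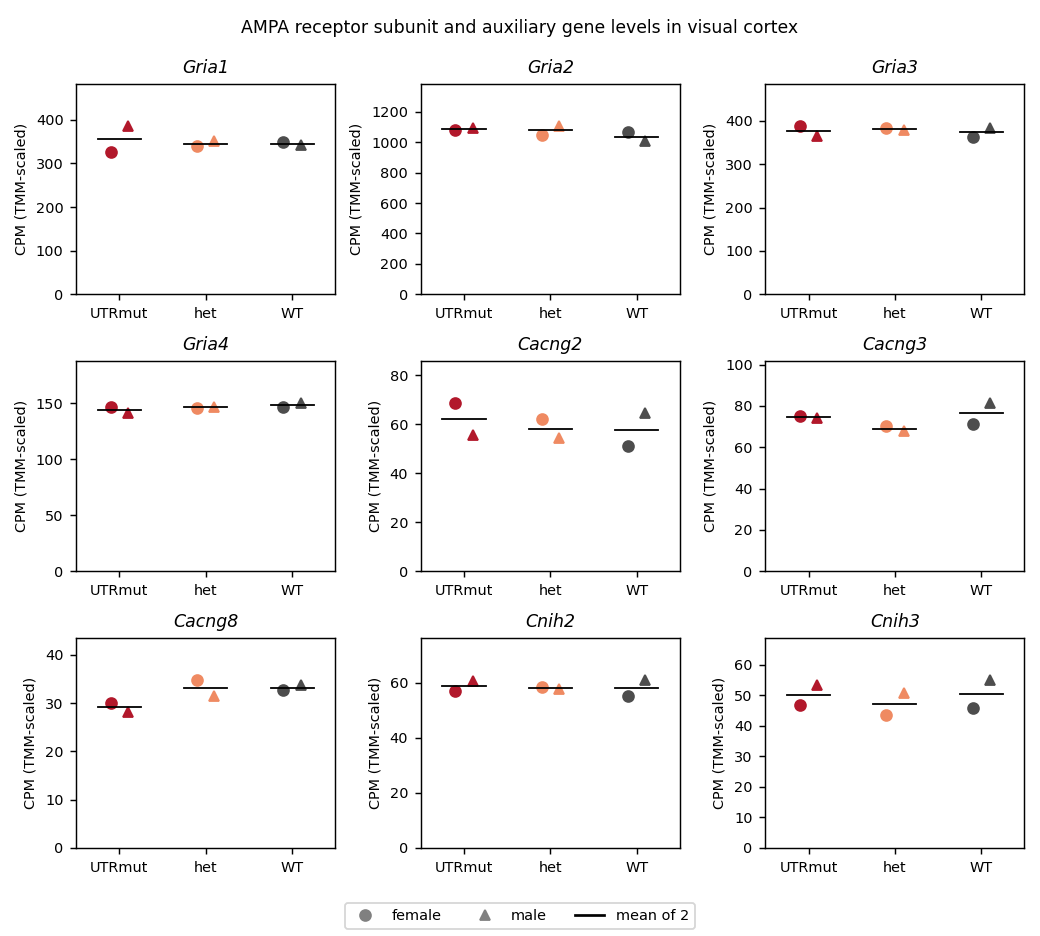
Level of each of the 9 genes in TMM-scaled CPM (y axes start at 0), with UTRmut, het and WT from left to right, circles for females, triangles for males and a line at the mean of 2. The groups of most genes overlap, both UTRmut libraries of Cacng8 (30.1 and 28.2 CPM) lie below the other 4, and the sexes of Cacng2 are ordered differently in UTRmut and WT.

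Separation of 2 libraries from 2 others was common in these data. In UTRmut against WT, 3 of the 9 genes did not overlap (Gria2 higher, Gria4 and Cacng8 lower), against 28.6% of all genes tested. In het against WT there were 2 (Gria4 and Cacng3, both lower), against 27.1%, and in UTRmut against het 2 (Cacng3 higher, Cacng8 lower), against 34.3%. These shares are near the background. The median log2 fold of the members was 0.01 in UTRmut against WT, 0.00 in het against WT and 0.01 in UTRmut against het, and that of all genes tested was -0.0097, -0.0038 and -0.0011. Positive folds numbered 5, 5 and 6 of 9 in the 3 comparisons, in the same order.

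**Figure D3:**
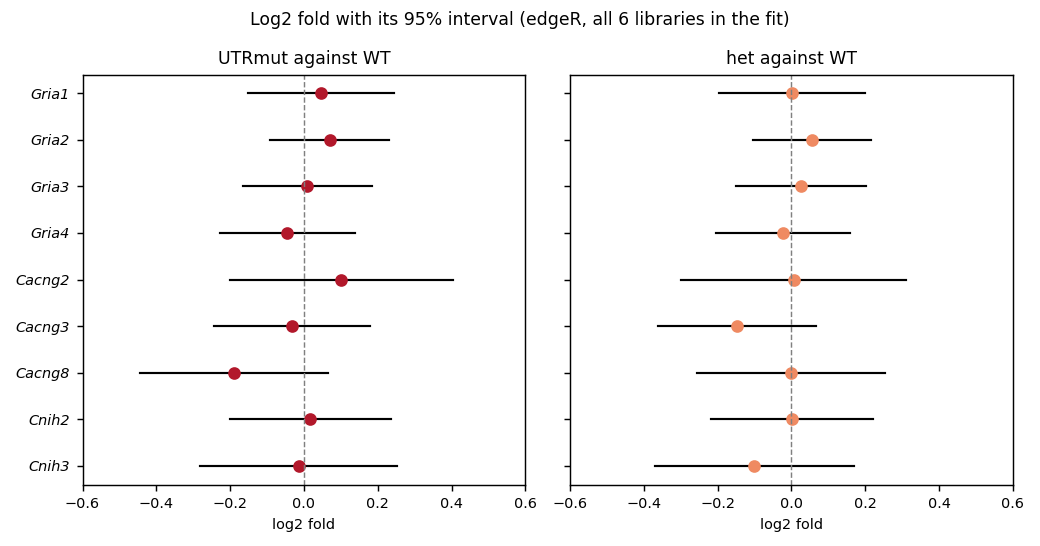
Log2 fold of each gene with its 95% interval (edgeR, all 6 libraries in the fit), UTRmut against WT on the left and het against WT on the right. Every interval includes 0; the lowest point is Cacng8 in UTRmut at -0.19, and the widest interval on the left is that of Cacng2, -0.20 to 0.40.

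A fit of the change per mutant allele (0, 1 or 2) gave 0 members and 0.0% of all genes past the threshold (edgeR, Benjamini-Hochberg). At an unadjusted p under 0.05 there were 0 members and 503 genes, and DESeq2 called 0 members and 4 genes. The log2 change per allele was -0.09 (SE 0.06, 95% interval -0.22 to 0.03) for Cacng8, 0.05 (SE 0.06) for Cacng2 and 0.03 (SE 0.04) for Gria2. For the other 6 it lay between -0.02 and 0.02.

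Females were compared with males with genotype in the model. None of the 9 passed, against 0.0372% of all genes (edgeR, Benjamini-Hochberg), 1 was under an unadjusted p of 0.05 beside 1127 of all genes, and DESeq2 called 0 members and 10 genes. The 1 was Cnih3, with 45.4 ± 1.75 CPM in females and 53.1 ± 2.15 CPM in males (SD, n = 3 each). All 3 females were below all 3 males; 12.3% of all genes tested were separated by sex in 1 direction or the other. The log2 fold of females against males was -0.23 (SE 0.08, 95% interval -0.40 to -0.05, edgeR adjusted p = 0.644), and -0.25 to -0.21 over the alternatives run. Sex and replicate number are the same split, so they cannot be told apart. The X-linked Gria3 had 378 ± 13.2 CPM in females and 375 ± 10.2 CPM in males (log2 fold 0.01, SE 0.06).

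The change per mutant allele was then set against sex. The interaction passed for 0 of the 9 genes, against 1.2% of all genes tested (144 with a more positive change in females and 50 with a more positive change in males, or 134 and 84 with upper-quartile factors; edgeR, Benjamini-Hochberg), and DESeq2 called 0 members and 77 genes. Under an unadjusted p of 0.05 were Cacng2 and Gria1 among the 9 and 2190 of all genes. Each combination of sex and genotype held 1 library, which left 2 residual degrees of freedom. Without the WT female the count over all genes was 16 in place of 194.

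Cacng2 differed from WT in opposite directions in the sexes, while het lay below UTRmut in both. With 0, 1 and 2 mutant alleles, females had 50.9, 61.9 and 68.7 CPM and males 64.6, 54.3 and 55.4 CPM. UTRmut minus WT was a log2 difference of 0.43 in females and -0.22 in males, and het minus WT was 0.28 in females and -0.25 in males. The change per allele was 0.33 more positive in females (SE 0.09, 95% interval 0.14 to 0.51), with an edgeR adjusted p of 0.0823, which did not pass. It passed with no low-count filter (0.0203) and with the het male left out (0.0119), and its adjusted p over 10 alternatives was 0.0119 to 0.910. The interneuron marker sum with 0, 1 and 2 alleles was 609, 674 and 731 CPM in females and 679, 665 and 702 CPM in males, and its part in the Cacng2 values was not tested.

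Gria1 differed from WT in the reverse directions, by smaller log2 steps. With 0, 1 and 2 mutant alleles it had 349, 339 and 327 CPM in females and 341, 352 and 386 CPM in males. The difference in the change per allele was -0.14 (SE 0.06, 95% interval -0.27 to -0.0035, edgeR adjusted p = 0.352). The other 7 genes had differences between -0.05 and 0.11, and none had an unadjusted p under 0.05.

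**Figure D4:**
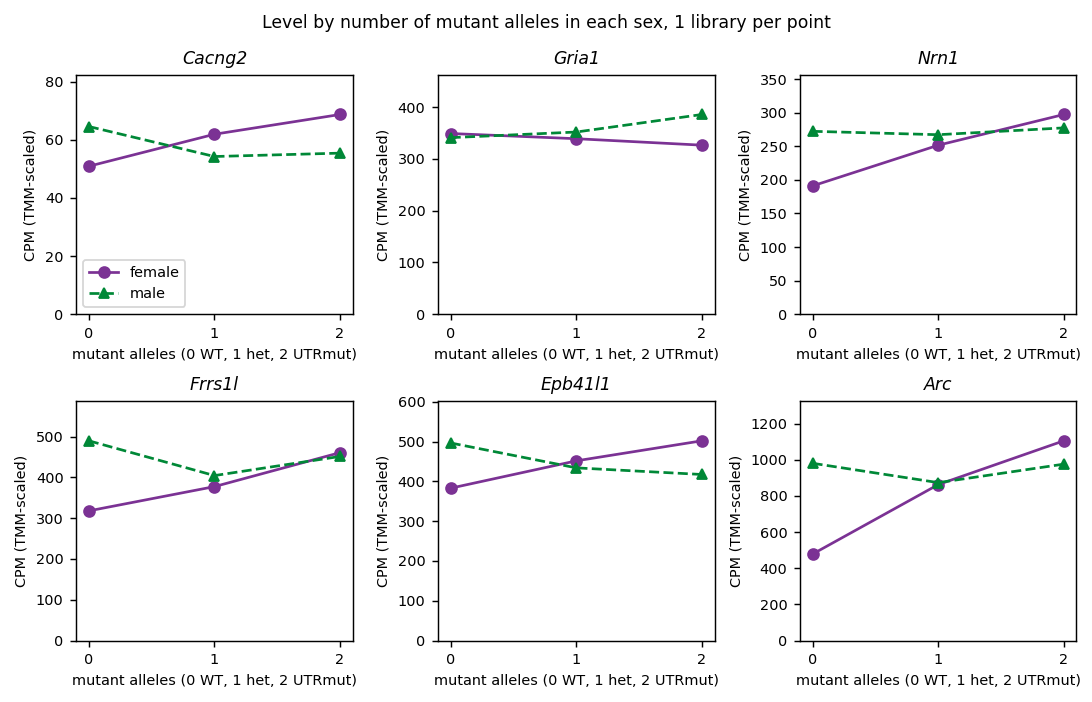
Level in TMM-scaled CPM by number of mutant alleles (0 WT, 1 het, 2 UTRmut) in females (circles, solid lines) and males (triangles, dashed lines), 1 library per point. Cacng2 and Gria1 are the members with an unadjusted p under 0.05, Nrn1, Frrs1l, Epb41l1 and Arc are the listed genes that passed the interaction test, and in these 4 the WT female is the lowest of the 6 libraries.

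The other genes of the pathway were read from lists of 16 further auxiliary proteins, 11 assembly and RNA editing factors, 24 trafficking and anchoring proteins, and 7 kainate and delta receptor subunits. All 58 genes passed the low-count filter, and 0 passed in UTRmut against WT, in het against WT, in UTRmut against het, in the change per allele or in females against males (edgeR, Benjamini-Hochberg). DESeq2 also called 0 in these 5 comparisons, and 1, 1, 3, 2 and 2 of the 58 had an unadjusted p under 0.05 (edgeR), against 2.71%, 2.37%, 2.8%, 3.12% and 6.99% of all genes tested. In the interaction with sex, 1 of 16, 1 of 11, 2 of 24 and 0 of 7 passed, all with a more positive change in females, against 1.2% of all genes tested (144 of 194 in that direction). At an unadjusted p under 0.05 the numbers were 6, 3, 5 and 2, against 13.6% of all genes.

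Among the further auxiliary proteins, Nrn1, the gene of neuritin (an activity-regulated protein found in AMPA receptor complexes), had 297 and 277 CPM in UTRmut, 252 and 267 CPM in het, and 191 and 272 CPM in WT. Its change per allele was 0.30 more positive in females (SE 0.07, edgeR adjusted p = 0.0290). That call was lost without the WT female (0.23, adjusted p = 0.593), the UTRmut female (0.39, 0.166), the WT male (0.27, 0.489) or the UTRmut male (0.35, 0.0613), each with a larger SE (0.11), and the adjusted p over 10 alternatives was 0.00114 to 0.593. The log2 fold of UTRmut against WT was 0.31 (SE 0.14) and did not pass, and it was 0.078 without the WT female and 0.60 without the WT male, where it passed (edgeR adjusted p = 0.00561, range over 12 alternatives 0.00561 to 1). Also not passing were Shisa9 (-0.23, SE 0.11) and Prrt1 (-0.20, SE 0.14) in UTRmut against WT. In het against WT the smallest p-values belonged to Shisa8 (-0.98, SE 0.57, on 5 to 17 counts per library), Prrt1 (-0.20, SE 0.14) and Cacng7 (-0.15, SE 0.11). The list's median log2 fold was -0.07 in UTRmut against WT, with 7 of 16 positive, and -0.11 in het against WT, with 4 of 16 positive. Of all genes tested, 47.9% were positive in UTRmut against WT and 48.9% in het against WT.

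Frrs1l, which encodes a factor that assembles the receptor in the endoplasmic reticulum, had 461 and 451 CPM in UTRmut, 377 and 404 CPM in het, and 318 and 490 CPM in WT. The WT libraries held both its lowest and its highest value. Its change per allele was 0.33 more positive in females (SE 0.08, edgeR adjusted p = 0.0481), a call lost without 4 of the libraries. The difference was 0.35 without the WT female (adjusted p = 0.466), 0.33 without the het female (0.0607), 0.31 without the UTRmut female (0.528) and 0.11 without the WT male (0.952). It was 0.55 without the UTRmut male, and the adjusted p had a range of 9.68e-05 to 0.952 over 10 alternatives. Cnih1, a cornichon of general secretory export, had a log2 fold of 0.15 (SE 0.12) in UTRmut against WT, Porcn -0.13 (SE 0.12) and Abhd12 0.09 (SE 0.09). In het against WT, Sacm1l had 0.12 (SE 0.10), Adarb1 (the Q/R site editor) -0.11 (SE 0.10) and Cnih1 0.07 (SE 0.12). None of these passed. The list's median was 0.01 in UTRmut against WT, with 6 of 11 positive, and -0.02 in het against WT, with 2 of 11 positive.

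Among trafficking and anchoring genes, Epb41l1, whose protein 4.1N binds the GluA1 tail, had 502 and 417 CPM in UTRmut, 452 and 434 CPM in het, and 383 and 497 CPM in WT. Its change per allele was 0.32 more positive in females (SE 0.06, edgeR adjusted p = 0.0197). The call was lost without the WT female (0.28, adjusted p = 0.486), the UTRmut female (0.37, 0.213) or the WT male (0.26, 0.539), each with an SE of 0.11, and the adjusted p had a range of 0.000245 to 0.539 over 10 alternatives. Arc, an activity-induced protein that promotes receptor endocytosis, had 1105 and 976 CPM in UTRmut, 863 and 874 CPM in het, and 478 and 981 CPM in WT. Its change per allele was 0.61 more positive in females (SE 0.10, edgeR adjusted p = 0.0193), lost without the WT female (0.36, SE 0.12, adjusted p = 0.377, range over 10 alternatives 1.04e-15 to 0.377).

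Dlg1, the gene of the scaffold SAP97, had 380 and 370 CPM in UTRmut, 358 and 365 CPM in het, and 315 and 337 CPM in WT. Its log2 fold was 0.20 (SE 0.08, unadjusted p = 0.0261) in UTRmut against WT and 0.15 (SE 0.08) in het against WT, and neither passed. Nptx2, a secreted pentraxin that clusters AMPA receptors on interneurons, had 109 and 97.8 CPM in UTRmut, 114 and 80.3 CPM in het, and 53.2 and 90.7 CPM in WT, for a log2 fold of 0.52 (SE 0.32) in UTRmut against WT. The WT female was its lowest library, and the fold was 0.19 without it and 0.97 without the WT male. Iqsec1 had -0.14 (SE 0.10) in UTRmut against WT, and Iqsec2 (-0.25, SE 0.11, unadjusted p = 0.0386) and Akap5 (-0.16, SE 0.08) were the others named in het against WT. Dlg4, named after its values were seen, had 212 CPM in the het male and 379 to 476 CPM in the other 5 libraries. The list's median was 0.02 in UTRmut against WT, with 16 of 24 positive, and -0.0050 in het against WT, with 10 of 24 positive.

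Of the kainate and delta subunits, which share the receptor superfamily, 0 of 7 were positive in UTRmut against WT (median -0.09; 47.9% of all genes) and 4 of 7 in het against WT (median 0.03; 48.9% of all genes). Grid1 and Grik5 had log2 folds of -0.13 (SE 0.10) and -0.18 (SE 0.15) in UTRmut against WT. In het against WT, Grik5 had -0.27 (SE 0.15), Grid1 -0.17 (SE 0.10) and Grik3 0.08 (SE 0.10). None passed. The muscle-type gamma subunits of the TARP family were barely counted: Cacng1 had 0 counts in every library and Cacng6 had 2 to 8, and neither entered the tests.

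The 9 genes varied unequally among the 6 libraries. Gria4 had a coefficient of variation of 1.93%, below the 2.52% that counting alone gives at its depth, and 0.74% of the 2569 genes within 2-fold of its level varied less. Gria3 (2.83%), Gria2 (3.43%) and Cnih2 (3.96%) also varied little, and 7.1%, 17.3% and 9.26% of genes of like level varied less than they did. Gria1 (5.77%), Cacng3 (6.56%) and Cacng8 (7.67%) were near the middle of theirs, at 53.9%, 46.6% and 45.2%. Cnih3 (9.27%) and Cacng2 (11.5%, against 3.96% from counting) varied most, and 72.5% and 87.9% of genes of like level varied less.

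As a description over the 6 libraries, the genes whose log2 CPM, centred on its mean, came nearest to each member were found by the root mean square difference. For Gria1 these were Jam3 (0.0096) and Gaa (0.013), for Gria2 Smcr8 (0.0083) and Sparc (0.011), for Gria3 Rnf24 (0.015) and Alkbh8 (0.015), and for Gria4 Phlpp2 (0.013) and Mcm3ap (0.017). For Cacng2 they were Polr2i (0.030) and Gad2 (0.036), for Cacng3 Ywhag (0.017) and Sppl3 (0.017), and for Cacng8 Upf1 (0.019) and Srgap2 (0.026). For Cnih2 they were Psma3 (0.012) and Usf1 (0.014), and for Cnih3 Ifngr1 (0.028) and Ndufab1 (0.030). Among the 9 genes themselves, Gria3 and Gria4 were nearest to each other (0.032). Genes that vary little lie near each other by this measure, and these had the lowest coefficients of variation of the 9. Gria4 ranked 59 of 16118 genes by nearness to Gria3, and Gria3 ranked 66 by nearness to Gria4. With 6 libraries and 16118 candidates for each gene, near neighbours are plentiful and the libraries share their depth.

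The genes lie on 8 chromosomes of GRCm38, each at a single locus. Gria1 lies at chr11:57011387-57330244 (plus strand), Gria2 at chr3:80681450-80802835 (minus), Gria3 at chrX:41400854-41678601 (plus) and Gria4 at chr9:4417896-4796234 (minus). Cacng2 lies at chr15:77991748-78120028 (minus), Cacng3 at chr7:122670492-122769393 (plus) and Cacng8 at chr7:3390683-3415648 (plus). Cnih2 lies at chr19:5092868-5098521 (minus) and Cnih3 at chr1:181352628-181460641 (plus). The antisense gene A730060N03Rik shares 323 bases of exon with Cacng2 and had 94 to 113 counts per library, beside 528 to 748 for Cacng2. Yif1a shares 14 bases with Cnih2 on the opposite strand and had 93 to 115 counts. Since the strand setting of the counting is not given in the sources used here, reads in these stretches are uncertain between the partners. Annotated microRNA genes inside exons of Gria2, Gria3 and Cacng8 had 0 counts in every library. The microRNA gene Gm23811 lies inside the body of Gria4, shares 19 of its 84 bases with Gria4 exons and had 1 to 7 counts.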

How the data were processed

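The deposited table holds raw counts of reads per Ensembl gene for each library, replicates apart. The authors used HTSeq 0.6.0, HISAT2, Trimmomatic 0.39, GATK 4.2.3.0 and GRCm38, per the submitters' processing notes, which give no role or order. Not given in the sources used here are the HISAT2 version, strand setting and annotation release. Total RNA libraries also hold unspliced RNA, and removal of ribosomal RNA can differ between libraries, which can move counts.

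Symbols and positions came from GENCODE M21 (GRCm38), which named 55227 of 55487 identifiers, and 26168 genes had 0 counts throughout. The function filterByExpr by genotype (minimum count 10, minimum total 15) kept 16119 genes. Counts were scaled with TMM factors and tested with the quasi-likelihood F test (robust) of edgeR 4.0.16 (limma 3.58.1, R 4.3.3) over all 6 libraries, with Benjamini-Hochberg adjustment over all genes tested and a threshold of 0.05. Genotype was a factor, or mutant alleles a number, with sex added or crossed for the sex comparisons. SE is the absolute log2 fold over the square root of F, and 95% intervals use the t distribution with the fit's total degrees of freedom. CPM values are TMM-scaled, and differences within a sex are of log2 CPM with a prior count of 2. Sequences, identity (Biopython 1.88, Python 3.11.15) and merged exon lengths came from the same annotation. Replicates differed beyond counting noise (chi-square per degree of freedom 8.78 in UTRmut, 4.63 in het and 8.57 in WT). The procedure was tested on simulated data with known changes. The simulation covered UTRmut against WT, het against WT and the change per mutant allele, with the same spread beyond counting noise in every gene. The comparisons by sex were not simulated, and neither were changes as small as the members' folds.

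Genes named were the 9 members throughout, the listed genes that passed or else up to 3 of the smallest unadjusted p per list in UTRmut against WT and het against WT, the 2 nearest genes of each member, and genes overlapping a member. The values of 1 gene that this rule names are not reported here. Members and lists were chosen with earlier results of these data known. Alternatives were DESeq2 1.42.0 (size factors, Wald test), upper-quartile factors, no filter, the replicate block, only the 2 genotypes compared, other length scales and each library left out.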

Additional observations from a re-analysis of the deposited data

Results flagged for a closer look

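For 4 genes of the AMPA receptor lists, the change per mutant allele differed between the sexes by the test of the difference itself (edgeR interaction term, Benjamini-Hochberg over 16119 genes). Of all genes tested, 194 (1.2%) passed this test, and 16 did so without the WT female. None of the 9 receptor genes was among them. The log2 change per allele was 0.61 more positive in females for Arc, 0.33 for Frrs1l, 0.32 for Epb41l1 and 0.30 for Nrn1. UTRmut minus WT was 1.21 in females and -0.0070 in males for Arc, 0.54 and -0.12 for Frrs1l, 0.39 and -0.25 for Epb41l1, and 0.64 and 0.027 for Nrn1, on the log2 scale with 1 library on each side. Each of the 4 calls was lost without the WT female. There the differences were 0.36, 0.35, 0.28 and 0.23 in the order Arc, Frrs1l, Epb41l1 and Nrn1, with SEs of 0.12, 0.13, 0.11 and 0.11. The calls of Frrs1l, Epb41l1 and Nrn1 were also lost without the UTRmut female (differences 0.31, 0.37 and 0.39). They were lost as well without the WT male (0.11, 0.26 and 0.27). Frrs1l also lost its call without the het female (0.33), and Nrn1 without the UTRmut male (0.35). All 4 held with DESeq2's Wald test.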

How the results depend on the processing

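Of 603 alternative values of the members' log2 folds (10 to 12 alternatives in each of 6 comparisons), 73 had the opposite sign to the reported value, none larger than 0.16 in size, and 2 passed where the reported value did not, both Cacng2 in the female minus male change per allele (no filter on low counts, and without the het male). The cause of the sign changes was not tested. When 1 library was left out in turn, the log2 folds that changed sign ran over these ranges. In UTRmut against WT they were Gria1 -0.077 to 0.16, Gria3 -0.034 to 0.062, Cacng2 -0.058 to 0.30, Cacng3 -0.13 to 0.080, Cnih2 -0.055 to 0.11, Cnih3 -0.14 to 0.14 and Grik5 -0.43 to 0.038. In het against WT they were Gria1 -0.026 to 0.030, Gria3 -0.015 to 0.072, Cacng2 -0.16 to 0.19, Cacng8 -0.075 to 0.071, Cnih2 -0.072 to 0.084, Cnih3 -0.23 to 0.044, Adarb1 -0.21 to 0.0079, Cnih1 -0.036 to 0.19 and Grik3 -0.016 to 0.18. In UTRmut against het they were Gria1 -0.080 to 0.16, Gria2 -0.024 to 0.057, Gria3 -0.061 to 0.029, Gria4 -0.045 to 0.0053, Cacng2 -0.065 to 0.24, Cnih2 -0.032 to 0.063 and Cnih3 -0.021 to 0.21. In the change per mutant allele they were Gria1 -0.033 to 0.071, Gria3 -0.015 to 0.028, Cacng2 -0.024 to 0.14, Cacng3 -0.040 to 0.052, Cnih2 -0.022 to 0.049 and Cnih3 -0.061 to 0.072. In females against males they were Gria2 -0.049 to 0.035, Gria3 -0.034 to 0.055, Gria4 -0.025 to 0.019, Cacng2 -0.081 to 0.25 and Cacng3 -0.087 to 0.037. In the female minus male change per allele they were Gria2 -0.13 to 0.032, Cacng3 -0.082 to 0.31, Cacng8 -0.084 to 0.22, Cnih2 -0.044 to 0.11 and Cnih3 -0.054 to 0.13. In UTRmut against WT, the folds of Gria2 (positive), Gria4 (negative) and Cacng8 (negative) kept their sign in all 12 alternatives. These are the members whose UTRmut and WT libraries did not overlap, as in 28.6% of all genes tested. Leaving out 1 library could hardly reverse such a sign, so those alternatives add no support. Upper-quartile factors gave the opposite sign for Gria3 (-0.0093) and Cnih2 (-0.0010) in UTRmut against WT, Gria1 (-0.0063) and Cnih2 (-0.0045) in het against WT, Gria3 (-0.0047) and Cnih2 (-0.00052) per allele, and Gria2 (0.015) in females against males. Without a filter on low counts the same held for Gria1 (-0.0022) and Cnih2 (-0.0025) in het against WT and for Gria3 (-0.0026) and Gria4 (-0.0100) in females against males, and with DESeq2's size factors or its Wald test for Gria4 (-0.00016 with each) in females against males. Of 108 alternative family shares, 44 moved by more than the SD between replicates. All 44 came from the other length scales. The rest of the 108 include shares with 1 of 2 replicates left out, which can never move by more than that SD.

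Counts over all genes moved more, and the cause was not tested. The counts reported were 1, 2, 2, 0, 6 and 194 genes in UTRmut against WT, het against WT, UTRmut against het, per allele, females against males, and the female minus male change per allele. Without a filter on low counts they were 27, 13, 28, 19, 92 and 600, with 1 member (Cacng2) in the last. DESeq2 called 8 in UTRmut against WT, 7 in UTRmut against het, 4 per allele, 10 in females against males and 77 in the last. With only the 2 genotypes compared in the fit, the counts were 3 in UTRmut against WT, 1 in het against WT and 10 in UTRmut against het. With the replicate block (sex), they were 4 in UTRmut against WT and 5 in UTRmut against het, and 0 members were called. Replicate numbers here stand for sex and are not given as litters or days, and same-numbered libraries deviated together with correlations of 0.295 (WT and het), 0.0802 (WT and UTRmut) and 0.196 (het and UTRmut), so the numbers were not taken to pair the libraries. Leaving out 1 library gave 2 to 124 genes in UTRmut against WT (124 without the WT male), 1 to 41 in het against WT (41 without the WT male), 0 to 12 in UTRmut against het, 0 to 45 per allele (45 without the WT male), 7 to 198 in females against males (198 without the WT female) and 16 to 733 in the last (16 without the WT female, 733 without the het male). Members called in the last were 0 to 1 when libraries were left out. In females against males, the count was far higher with the WT female or the WT male left out than with any other library left out. Leaving out 1 library leaves its genotype with 1, which is assumed to vary like the others. Depth limits the TARP and cornichon genes most: counting alone gives a coefficient of variation of 5.41% for Cacng8 and 0.934% for Gria2. Intervals cover the spread between these 6 libraries, and splicing, editing and protein are outside what gene counts show.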
